A study of Rattus norvegicus with 8 samples.

Results

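The collagen gene family was described in the small intestine of rats with cystic fibrosis (CF) and of wild-type (WT) rats. Members were the loci whose only gene symbol is a collagen chain symbol (Col, a number, a, a number) and that held at least 20 fragments summed over the 8 libraries. This gave 36 members of 52753 loci in the tables, of which 40072 had at least 1 fragment. They comprise 8 fibrillar chains, 6 basement membrane chains and 22 chains of other classes, the last made up of 8 fibril-associated (FACIT), 6 beaded filament, 4 transmembrane and 2 network-forming chains, 1 multiplexin and 1 chain without a class. In CF, inherited mutations disable CFTR, an anion channel of epithelia. The groups were 4 CF libraries and 4 WT libraries, all from Sprague Dawley rats at postnatal day 21, made by stranded mRNA sequencing of trimmed small intestine flushed with saline and dithiothreitol. The labels give neither the CF allele nor sex, litter or batch, and do not tie each library to a separate rat, so the spread behind every p-value may be technical.

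Collagens are the main structural proteins of the extracellular matrix, built from chains that wind into a triple helix. Fibrillar collagens form the fibres of the intestinal submucosa and lamina propria, type IV collagens form the sheet under the epithelium and around vessels, muscle and nerve, and type VI collagens form beaded filaments that link cells to the fibres. Fibroblasts, smooth muscle and endothelial cells make most of these chains, while a few, such as the transmembrane chain of type XVII collagen, belong to epithelial cells that attach to a basement membrane.

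Assigned fragments numbered 18.6 to 20.9 M in the CF libraries and 15.3 to 20.8 M in the WT libraries. Libraries are called by the numbers 0 to 3 that the tables give them, which only name them. The enterocyte markers were abundant throughout, summing to 6811, 22681, 14325 and 15467 CPM (counts scaled to library size by TMM) in CF libraries 0 to 3 and to 11174 to 20716 CPM in the WT libraries. CF library 0 was thus the lowest of the 8 for these genes, and counts of collagen calls without it are given below.

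Collagen transcripts as a group lay lower in the CF intestine, while no single collagen passed the test over all loci. The members took 0.420%, 0.361%, 0.420% and 0.310% of fragments in CF libraries 0 to 3, against 0.594%, 0.514%, 0.561% and 0.362% in WT libraries 0 to 3. WT library 3 lay within the CF range, and the other WT libraries lay above every CF library. The quasi-likelihood test of edgeR was used, adjusted over all loci by the Benjamini-Hochberg method. In it 0 of the 35 members tested had an adjusted p under 0.05, where 0.165% of the 16941 loci tested did (23 higher and 5 lower in CF). The remaining member, Col25a1, had too few fragments for the test. At an unadjusted p under 0.05 there were 16 members, all with the lower mean in CF, beside 15.1% of all loci in either direction and 7.21% in that direction.

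The mean was lower in CF for 32 of the 35 members (50.8% of all loci), and the median log2 fold change of CF over WT was −0.41, beside −0.005 over all loci tested. On log2(FPKM + 1), a scale that shrinks the differences of low loci, that median was −0.26. All 4 CF libraries lay below all 4 WT libraries for 10 members, against 3.91% of all loci, and no member had the opposite pattern, which 4.86% of loci had. The median was −0.69 for the basement membrane chains, −0.55 for the fibrillar chains and −0.31 for the other chains. The basement membrane median reflects the scarcer chains, since the abundant Col4a1 and Col4a2 were at −0.05 and −0.10. Summed CPM of that class overlapped, at 969 to 1407 in CF and 989 to 1387 in WT. The number of calls depended on the method. DESeq2 called 9 members, all lower in CF (3.67% of all loci, 1.2% lower), and edgeR with no filter on low counts called 8, all lower (1.38% of 40061 loci, 0.392% lower). Limma-voom called 0 members (0.13% of loci). Without CF library 0 edgeR called 2 members, Col4a4 and Col4a6, both lower (0.781% of loci, 0.103% lower), and without CF library 2 it called 2, Col6a4 and Col4a6, both lower (0.443% of loci, 0.0633% lower).

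**Figure D1:**
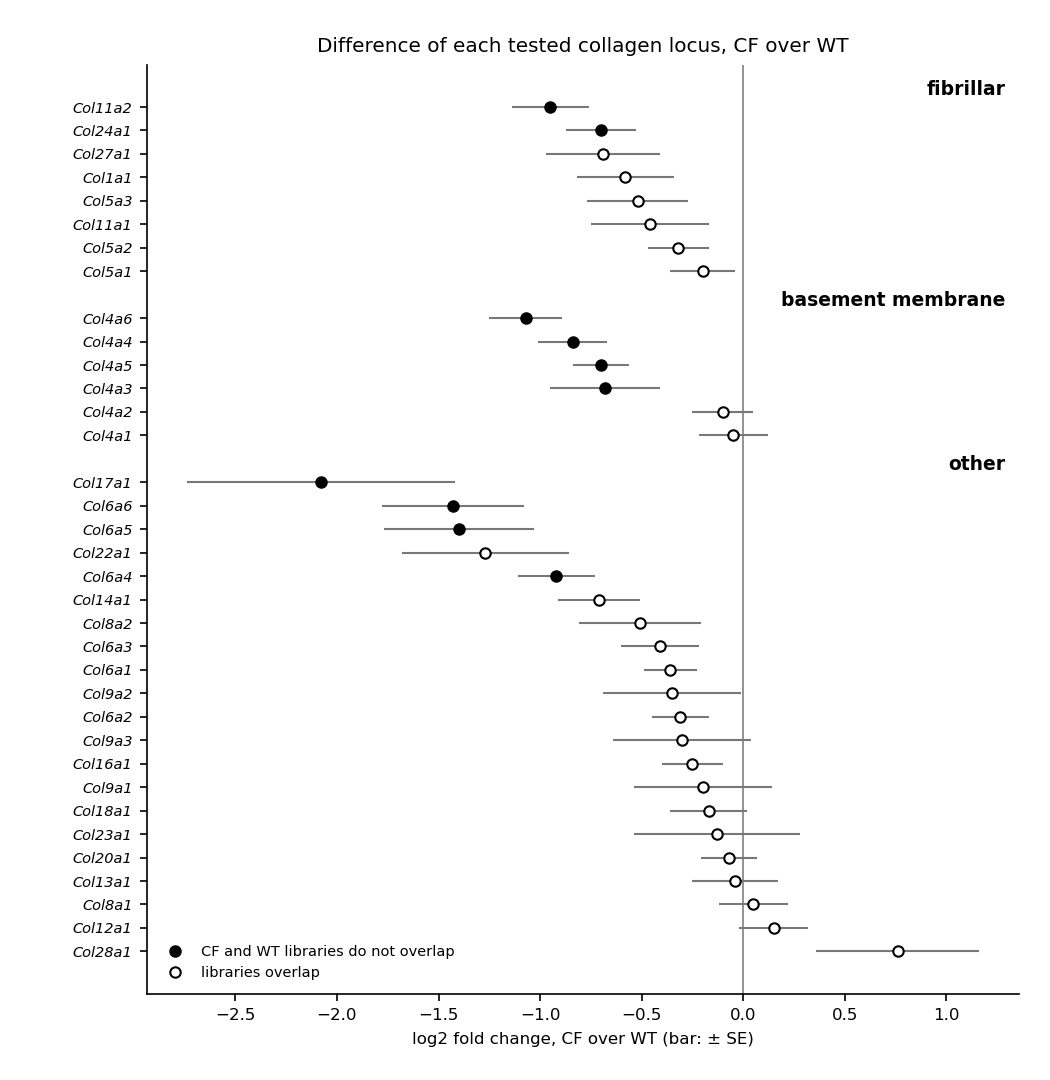
Log2 fold change of CF over WT for the 35 tested collagen loci, by class, with bars of ± 1 SE. Filled points mark the 10 loci whose CF and WT libraries do not overlap in CPM, all of them left of 0, and 3 loci lie right of 0.

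In bulk tissue, fewer cells of a type and less RNA per cell cannot be told apart. Markers of several cell types moved beside the collagens. All 7 tested fibroblast markers had lower means in CF (median log2 fold change −0.52), and their summed level was 499 to 741 CPM in CF libraries and 669 to 929 CPM in WT libraries. All 7 tested endothelial markers were also lower on average (median −0.51), with sums of 95.7 to 157 CPM in CF and 142 to 185 CPM in WT. Of 8 listed smooth muscle markers, Tagln and Actg2 were left out because their loci hold several symbols. The 6 tested smooth muscle markers had higher means in CF (median 0.13). Their sums were 4984 to 6607 CPM in CF, above 3039.5 to 4529 CPM in WT, but without Des the sums overlap. Acta2, Myh11, Lmod1 and Smtn overlapped between groups, with log2 fold changes of 0.11 to 0.14. Only Des and Cnn1 (log2 fold change 0.88) did not overlap, where 4.86% of all loci lay wholly higher in CF. Among them Des, which encodes the muscle intermediate filament desmin, averaged 1507 ± 338 CPM in CF and 770.3 ± 114 CPM in WT (SD, n = 4 each; log2 fold change 0.97, SE 0.18, adjusted p = 0.0689 by edgeR). Markers of mesothelium and fat were all lower on average as well (6 of 6, median −0.43). Those of glia and neurons (6 of 7 lower, median −0.20), pericytes (2 of 4 lower, median −0.10) and enterocytes (2 of 7 lower, median 0.06) were mixed. The sums of each of these lists overlapped between groups, as did the fibroblast and endothelial sums. No listed marker found in the tables was at 0 in all libraries, and no marker passed the edgeR test. DESeq2 called 3 fibroblast and 2 endothelial markers lower in CF and 2 smooth muscle markers higher (3.67% of all loci, 1.2% lower). It called no marker of the other lists. All CF libraries lay below all WT libraries for 28.6% of the fibroblast and of the endothelial markers. That share was also 28.6% for the collagens and 3.91% over all loci. The part of these marker shifts in the collagen values was not tested.

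**Figure D2:**
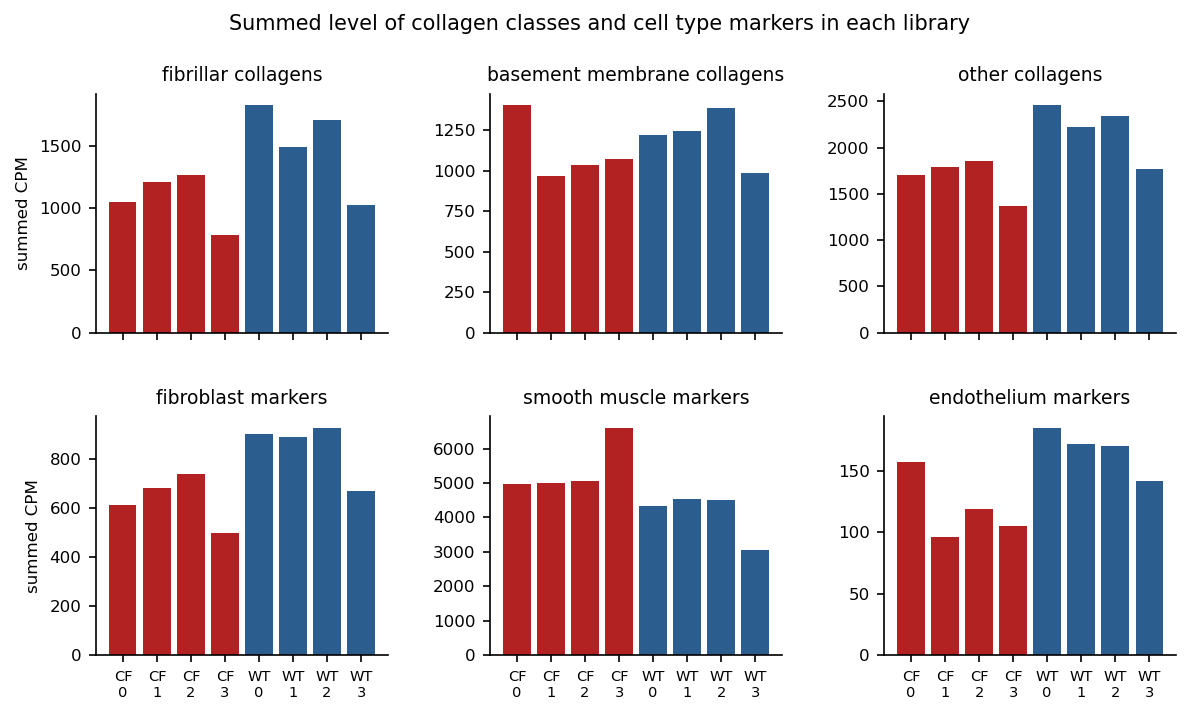
Summed CPM of the fibrillar, basement membrane and other collagen loci and of fibroblast, smooth muscle and endothelial markers, 1 bar per library, CF libraries in red and WT libraries in blue. Fibrillar sums were 787 to 1271 in CF and 1026 to 1832 in WT, and fibroblast sums show library 3 as the lowest of each group. Basement membrane sums were 969 to 1407 in CF and 989 to 1387 in WT. Smooth muscle sums do not overlap between groups with Des included, and overlap without it.

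The fibrillar chains were led by Col1a1, which encodes the main chain of type I collagen and averaged 137 FPKM over the 8 libraries (fragments scaled by transcript length and library size, a level per length). Col5a1 and Col5a2, the chains of the type V collagen that starts fibrils and limits their width, followed at 18.7 and 18.5 FPKM, and the other 5 ranged from 0.214 FPKM for Col11a1 to 2.37 FPKM for Col27a1. Col1a1 (chromosome 10, 82745801 to 82762789, Rnor_6.0) had 653, 853, 867 and 458 CPM in CF libraries 0 to 3, against 1301, 1013, 1201 and 707 CPM in WT libraries 0 to 3. WT library 3 fell among the CF libraries, so the groups overlapped. The log2 fold change was −0.58 (SE 0.24), with an adjusted p of 0.299 by edgeR.

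Col5a1 (chromosome 3, 6430165 to 6581348) had 207, 188, 204 and 183 CPM in CF, against 269.6, 232, 244 and 155 CPM in WT. Col5a2 (chromosome 9, 52091086 to 52238980) had 148, 130.2, 145 and 118 CPM in CF, against 191, 176, 188 and 121 CPM in WT. Both chains were highest in WT libraries 0 to 2, with WT library 3 among or below the CF libraries. Their log2 fold changes were −0.20 (SE 0.16) and −0.32 (SE 0.15), with adjusted p-values of 0.576 and 0.342 by edgeR.

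The clearest separations among fibrillar chains were in scarce ones. Col11a2 (chromosome 20, 3830164 to 3859161), a chain of the type XI collagen best known from cartilage, had 3.13, 2.93, 3.41 and 2.74 CPM in CF, against 5.66, 6.57, 6.85 and 4.51 CPM in WT. Col24a1 (chromosome 2, 251176576 to 251436226), a minor fibrillar chain, had 4.82, 3.61, 4.58 and 3.84 CPM in CF, against 5.78, 6.92, 8.15 and 6.55 CPM in WT. Neither overlapped between groups. The log2 fold changes were −0.95 (SE 0.19, adjusted p = 0.0710) for Col11a2 and −0.70 (SE 0.17, adjusted p = 0.122) for Col24a1 by edgeR. DESeq2 called both, with adjusted p-values of 0.000756 and 0.0147.

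Col27a1, Col5a3 and Col11a1 overlapped between groups, with log2 fold changes of −0.69, −0.52 and −0.46. Col27a1, a fibrillar chain of developing cartilage, had 15.6, 20.8, 29.5 and 12.1 CPM in CF, against 35.1, 33.9, 36.5 and 19.9 CPM in WT. CF library 3 was its lowest library and WT library 3 the lowest of its own group. All 8 fibrillar chains thus had the lower mean in CF (50.8% of all loci). By edgeR 4 of them had an unadjusted p under 0.05, beside 15.1% of all loci in either direction and 7.21% lower.

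**Figure D3:**
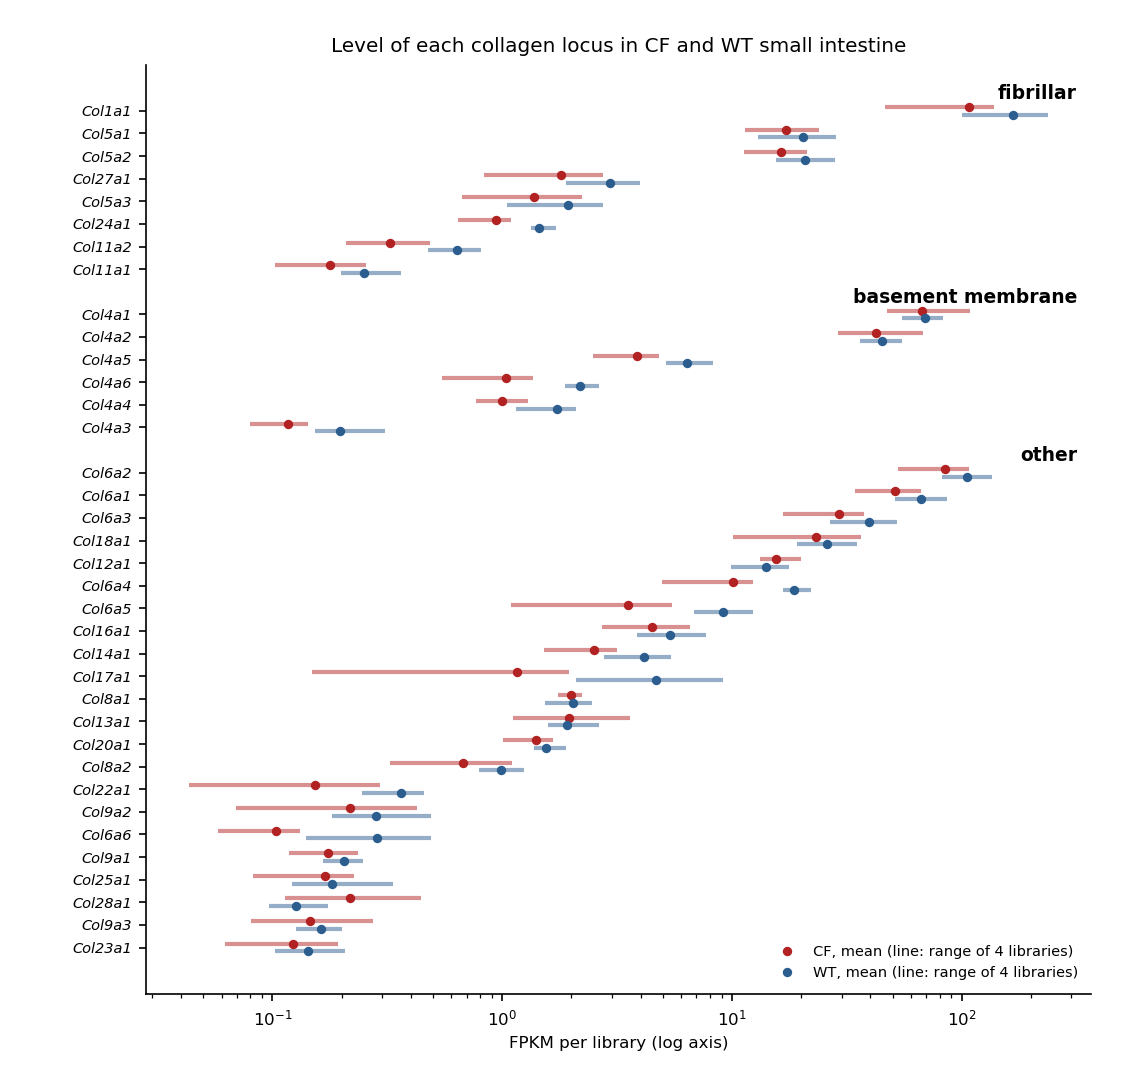
FPKM per library on a log axis for the 36 collagen loci by class, CF in red above WT in blue, points for means and lines for the range of 4 libraries. Levels run from Col1a1, at 108 FPKM in CF and 167 FPKM in WT, down to Col6a6 and Col4a3, at 0.104 and 0.117 FPKM in CF, and most CF means lie left of the WT means.

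The members cover type I and type III collagen only in part. Col1a2, whose product joins that of Col1a1 in type I collagen, held 9 fragments in all 8 libraries beside 131855 for Col1a1. It missed the minimum, and this count is not read as its absence from the tissue. Col3a1, the chain of type III collagen, shared its locus with a second symbol and was therefore no member. That locus had 1129, 1226, 1343 and 903 CPM in CF, against 1652, 1492, 1702 and 1156 CPM in WT. The groups overlapped through WT library 3, and the log2 fold change was −0.38 (SE 0.17, adjusted p = 0.331 by edgeR).

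Col7a1, the chain of the anchoring fibrils under epithelia, likewise shared its locus with a microRNA gene. That locus averaged 1.99 ± 0.690 CPM in CF and 1.65 ± 0.352 CPM in WT (SD, n = 4 each). Just outside the minimum were Col19a1 with 18 fragments, Col2a1 with 11, Col26a1 with 9 and Col10a1 with 8, while Col15a1 and a second Col23a1 locus had 0. Just inside it was Col25a1 with 62 fragments.

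The type IV chains differed from each other. The 6 chains build several molecules, of which that of Col4a1 and Col4a2 is found in basement membranes everywhere, and the others hold the chains of Col4a3, Col4a4, Col4a5 and Col4a6. Col4a1 and Col4a2 averaged 68.0 and 43.5 FPKM over the 8 libraries, Col4a5 5.11 FPKM, Col4a6 1.62 FPKM, Col4a4 1.37 FPKM and Col4a3 0.157 FPKM. The abundant pair hardly differed between groups. All CF libraries lay below all WT libraries for each of the 4 scarcer chains, a pattern that 3.91% of all loci had.

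The 6 genes form 3 neighbouring pairs. In the files' Rnor_6.0 spans, Col4a1 and Col4a2 lie 17 bases apart on chromosome 16, Col4a3 and Col4a4 76 bases apart on chromosome 9, and Col4a5 and Col4a6 1303 bases apart on chromosome X. RefSeq's starts on GRCr8, a later build, are 76, 412 and 1414 bases apart. The interval of the abundant pair and the stretches upstream of Col4a4 and Col4a6 are shown as the sequence that lies between, or next to, paired genes. They are given 5′ to 3′ on the strand of the gene named first, from RefSeq's GRCr8 table, and capitals mark, on either strand, matches to the GC box (GGGCGG), to the CCAAT box and to the TATA box (TATAAA). For Col4a6, bases inside the annotated span of the gene are left out.
Col4a1 to Col4a2 interval (GRCr8 chr16:84885521-84885596, plus strand): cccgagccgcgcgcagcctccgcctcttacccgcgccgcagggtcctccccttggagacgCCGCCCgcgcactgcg
Col4a4 upstream (GRCr8 chr9:91323578-91323827, minus strand): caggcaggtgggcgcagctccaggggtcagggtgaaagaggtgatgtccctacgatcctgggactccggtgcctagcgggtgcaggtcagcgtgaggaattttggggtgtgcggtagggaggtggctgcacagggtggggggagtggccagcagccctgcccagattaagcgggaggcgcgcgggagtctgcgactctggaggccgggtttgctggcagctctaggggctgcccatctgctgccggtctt
Col4a6 upstream (GRCr8 chrX:109905988-109906194, minus strand): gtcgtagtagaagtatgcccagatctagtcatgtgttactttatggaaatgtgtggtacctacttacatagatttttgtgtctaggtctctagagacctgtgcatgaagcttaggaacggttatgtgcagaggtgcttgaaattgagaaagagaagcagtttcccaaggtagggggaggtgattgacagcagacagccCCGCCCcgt

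The first interval is 76 bases with a GC content of 78.9% and 1 GGGCGG match. The Col4a4 stretch (66.4% GC) held no match to any of the 3 motifs, and the Col4a6 stretch (46.4% GC) held 1 GGGCGG match. A promoter window was in the table for 29 of the 36 members. Of these, 18 held GGGCGG in the 250 bases before the start (32.4% of 27457 genes), 9 held CCAAT (34.3%) and 2 held TATAAA (13.1%). A match is a description of letters only.

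Col4a1 (chromosome 16, 83522162 to 83632153, Rnor_6.0) had 840, 541, 582 and 642 CPM in CF, against 673, 692, 776 and 555 CPM in WT. Col4a2 (chromosome 16, 83386388 to 83522144) had 512, 376, 396 and 392 CPM in CF, against 453, 457, 521 and 364 CPM in WT. CF library 0 was the highest CF library for both and the other 3 CF libraries lay within or just below the WT range. The log2 fold changes were −0.05 (SE 0.17) for Col4a1 and −0.10 (SE 0.15) for Col4a2, with adjusted p-values of 0.917 and 0.791 by edgeR.

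Col4a6 (chromosome X, 112404161 to 112768341) had 9.50, 10.3, 11.9 and 6.23 CPM in CF, against 20.9, 20.6, 21.2 and 16.7 CPM in WT. Every CF library lay under the lowest WT library. The log2 fold change was −1.07 (SE 0.18, fold 0.476), with an adjusted p of 0.0576 by edgeR, the lowest of the family, and DESeq2 gave 3.5e-05. Its neighbour Col4a5 (chromosome X, 112769645 to 112983715) had 35.5, 33.1, 36.1 and 26.8 CPM in CF, against 60.7, 59.0, 51.6 and 42.9 CPM in WT. These groups did not overlap either, with a fold of 0.614 (log2 −0.70, SE 0.14) and an adjusted p of 0.0689 by edgeR, against 0.000828 by DESeq2.

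Col4a4 (chromosome 9, 88232455 to 88357479), outside the rule for named genes and chosen after its values were seen, had 8.44, 7.22, 6.65 and 6.08 CPM in CF, against 12.4, 13.8, 14.8 and 9.69 CPM in WT. No CF library reached the lowest WT library, and the log2 fold change was −0.84 (SE 0.17, adjusted p = 0.0756 by edgeR). Its neighbour Col4a3 had 1.30, 0.959, 1.38 and 1.50 CPM in CF, against 2.92, 1.96, 1.77 and 1.64 CPM in WT. The highest CF library and the lowest WT library of Col4a3 were close, and its log2 fold change was −0.68 (SE 0.27, adjusted p = 0.276 by edgeR).

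**Figure D4:**
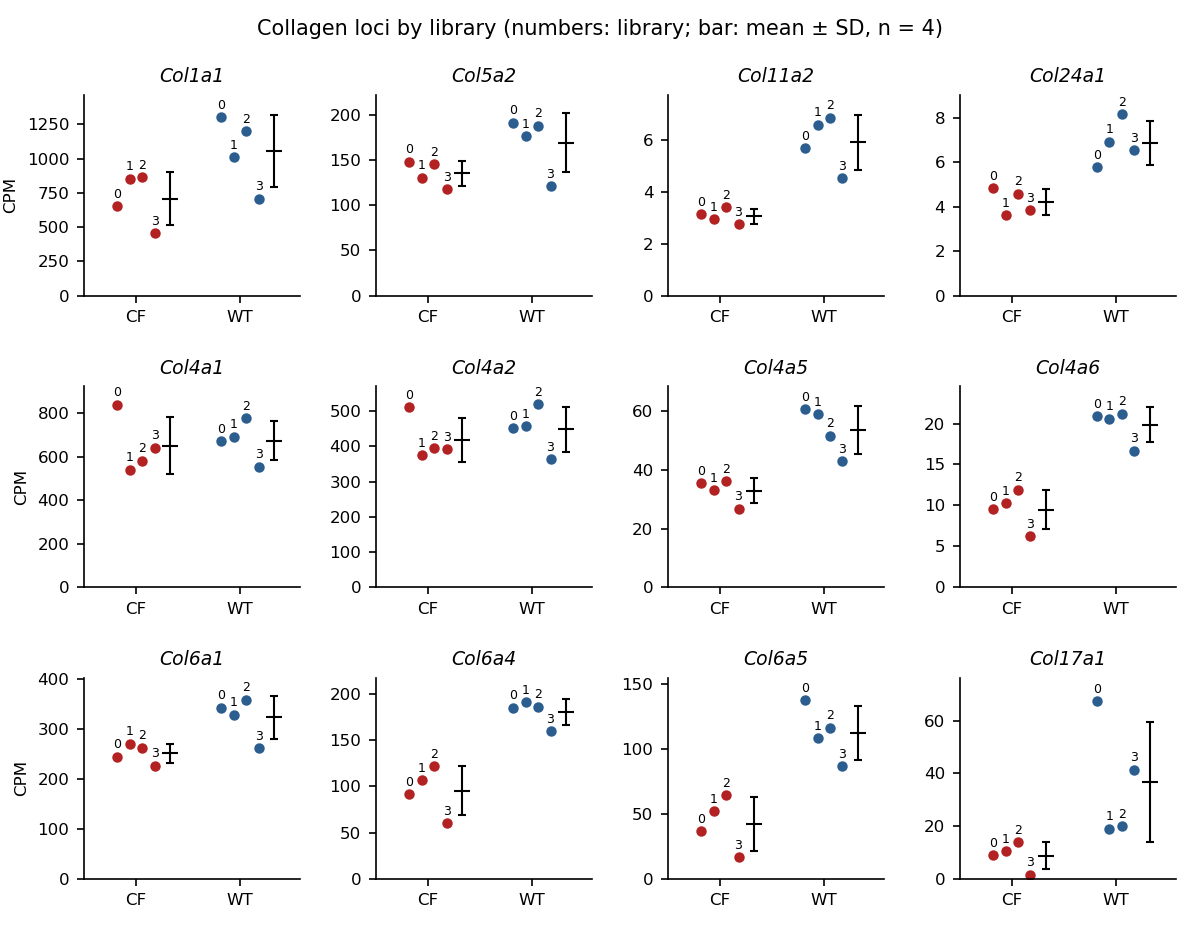
CPM of 12 collagen loci in each library, CF left of WT, points numbered by library, with the mean and SD of 4 libraries beside them. CF and WT separate for Col11a2, Col24a1, Col4a5, Col4a6, Col6a4, Col6a5 and Col17a1, and overlap for Col1a1, Col5a2, Col4a1, Col4a2 and Col6a1.

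Set against Col4a1 within each library, on FPKM, Col4a6 stood at 0.0112 to 0.0222 in CF and at 0.0276 to 0.0340 in WT. The ratio of Col4a5 to Col4a1 was 0.0439 to 0.0762 in CF and 0.0732 to 0.104 in WT, so that CF library 1 lay inside the WT range. These ratios were chosen after the values were seen and were not tested.

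Ratios of partner chains that assemble into 1 molecule were compared by an exact two-sided permutation test, using all 70 ways to assign the libraries, with a smallest possible p of 0.0286. Col4a2 over Col4a1 was 0.633 ± 0.0244 in CF and 0.648 ± 0.0274 in WT (SD, n = 4 each), with an exact p of 0.429. Col5a2 over Col5a1 was 0.964 ± 0.0840 in CF and 1.05 ± 0.116 in WT, with an exact p of 0.257. For type VI collagen, Col6a2 over Col6a1 was 1.64 ± 0.125 in CF and 1.60 ± 0.271 in WT (exact p = 0.829), and Col6a3 over Col6a1 was 0.569 ± 0.106 in CF and 0.590 ± 0.0439 in WT (exact p = 0.686). Adjusted over the 4 ratios computed, every p was 0.829. No ratio passed the test, and each overlapped between groups. The log2 differences were −0.03, −0.11, 0.04 and −0.07, and the ratio of Col1a2 to Col1a1 was not computed for want of Col1a2 fragments.

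Among the remaining chains, Col6a2, Col6a1 and Col6a3 were the most abundant. Col6a2 averaged 94.8 FPKM, Col6a1 58.7 FPKM and Col6a3 34.3 FPKM over the 8 libraries, the 3 chains of the classical type VI molecule. Col6a4, Col6a5 and Col6a6 encode further chains that can take the place of the Col6a3 chain, and averaged 14.4, 6.34 and 0.194 FPKM, below Col18a1 at 24.6 FPKM and Col12a1 at 14.8 FPKM.

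Col6a1 (chromosome 20, 12658065 to 12675561) had 244, 269.6, 262 and 226 CPM in CF, against 342, 328, 358 and 261 CPM in WT. Col6a2 (chromosome 20, 12773427 to 12801180) had 483, 522, 486 and 403 CPM in CF, against 586, 589, 686 and 491 CPM in WT. Col6a3 (chromosome 9, 97926783 to 98004677) had 329, 402, 437 and 271 CPM in CF, against 574, 500.2, 502 and 339.6 CPM in WT. In each case WT libraries 0 to 2 lay above every CF library and WT library 3 among them. The log2 fold changes were −0.36 (SE 0.13), −0.31 (SE 0.14) and −0.41 (SE 0.19), with adjusted p-values of 0.227, 0.322 and 0.342 by edgeR.

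The replacement chains differed more between groups. Col6a4 (chromosome 8, 114663805 to 114786531), a chain known from mouse, had 91.5, 107, 122 and 60.1 CPM in CF, against 185, 191, 186 and 159.6 CPM in WT. Every CF library was below every WT library, and CF library 3 was the lowest. The log2 fold change was −0.92 (SE 0.19, fold 0.527), with an adjusted p of 0.0773 by edgeR and 0.000793 by DESeq2.

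Col6a5 (chromosome 8, 114527874 to 114632126), chosen after its values were seen, had 36.4, 52.0, 64.2 and 16.5 CPM in CF, against 137, 108, 116 and 86.7 CPM in WT. Col6a6 (chromosome 8, 114352730 to 114449956) had 1.01, 1.52, 1.28 and 0.848 CPM in CF, against 5.05, 3.06, 2.79 and 1.64 CPM in WT. Neither gene overlapped between groups. The log2 fold changes were −1.40 (SE 0.37, adjusted p = 0.155) for Col6a5 and −1.43 (SE 0.35, adjusted p = 0.115) for Col6a6 by edgeR, and DESeq2 called both (0.00239 and 0.00856). These 3 genes are neighbours on chromosome 8, with 31678 bases between Col6a4 and Col6a5 and 77917 bases between Col6a5 and Col6a6.

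On FPKM within each library, Col6a4 stood at 0.145 to 0.233 of Col6a1 in CF and at 0.257 to 0.327 of it in WT. Col6a5 stood at 0.0318 to 0.103 of Col6a1 in CF and at 0.134 to 0.144 of it in WT. Neither ratio overlapped between groups, and neither was tested, since both were chosen after the values were seen.

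The largest difference of the family was in Col17a1 (chromosome 1, 267416698 to 267463705), chosen after its values were seen, which encodes a transmembrane collagen of hemidesmosomes, the structures that anchor epithelial cells. It had 8.92, 10.6, 13.8 and 1.60 CPM in CF, against 67.4, 19.0, 19.9 and 41.4 CPM in WT. CF library 3 was far below the other CF libraries, and the WT libraries ranged widely. The log2 fold change was −2.08 (SE 0.66, fold 0.236), with adjusted p-values of 0.224 by edgeR and 0.0691 by DESeq2, so neither called it. Set against Col18a1, its FPKM ratio was 0.0146 to 0.0753 in CF and 0.104 to 0.261 in WT, untested.

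The stretch upstream of Col17a1 is shown because only it and Col13a1 among the 29 members with a window held TATAAA. Capitals mark matches to the same motifs, and this stretch has 2 matches to TATAAA and 1 to CCAAT, with a GC content of 47.2%.
Col17a1 upstream (GRCr8 chr1:256518858-256519107, minus strand): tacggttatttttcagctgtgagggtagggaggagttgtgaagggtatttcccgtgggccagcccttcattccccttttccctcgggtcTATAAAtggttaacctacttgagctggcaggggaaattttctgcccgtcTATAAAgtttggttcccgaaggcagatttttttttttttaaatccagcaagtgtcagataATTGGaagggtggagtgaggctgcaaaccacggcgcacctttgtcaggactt

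Of the FACIT chains, which sit on the surface of fibrils, Col12a1 was the most abundant at 14.8 FPKM, with 209, 149, 166 and 196 CPM in CF, against 199, 181, 153 and 117 CPM in WT. Its groups overlapped and its log2 fold change was 0.15 (SE 0.17, adjusted p = 0.728 by edgeR). Col14a1 was at 16.7, 24.9, 24.0 and 15.7 CPM in CF, against 40.4, 34.0, 35.5 and 23.3 CPM in WT. Its log2 fold change was −0.71 (SE 0.20, adjusted p = 0.158 by edgeR, 0.0374 by DESeq2), and WT library 3 lay within the CF range.

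Col22a1, a FACIT chain of tissue junctions such as that of muscle and tendon, had 0.868, 1.52, 2.50 and 0.549 CPM in CF, against 3.23, 3.46, 4.05 and 2.25 CPM in WT. Its log2 fold change was −1.27 (SE 0.41, adjusted p = 0.202 by edgeR), and CF library 2 overlapped the WT range. Col16a1 at 4.93 FPKM and Col20a1 at 1.47 FPKM had log2 fold changes of −0.25 and −0.07. The type IX chains Col9a1, Col9a2 and Col9a3, at 0.154 to 0.249 FPKM, had log2 fold changes of −0.20, −0.35 and −0.30 with overlapping groups.

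Col18a1, the multiplexin of epithelial and vascular basement membranes, had 214, 186, 189 and 109 CPM in CF, against 235, 177, 194 and 180.3 CPM in WT. CF library 3 was the lowest and the remaining libraries overlapped, with a log2 fold change of −0.17 (SE 0.19). The network-forming chains of type VIII collagen, found around vessels, were at 2.01 FPKM for Col8a1 and 0.833 FPKM for Col8a2, with log2 fold changes of 0.05 and −0.51. The transmembrane chains Col13a1 and Col23a1 had log2 fold changes of −0.04 and −0.13. Col28a1 was at 2.22, 0.733, 0.692 and 1.30 CPM in CF, against 0.852, 0.753, 0.652 and 0.683 CPM in WT, and CF library 0 held its highest value. Its log2 fold change of 0.76 (SE 0.40, adjusted p = 0.402 by edgeR) was the largest in that direction. Col25a1, not tested, had 0.249 to 0.508 CPM in CF and 0.243 to 0.819 CPM in WT.

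Libraries differed within each group as well. CF library 3 was the lowest CF library for 23 of the 35 tested members, and WT library 3 was the lowest WT library for 27. The same libraries had the lowest fibroblast sums of their groups, 499 CPM in CF library 3 and 669 CPM in WT library 3. They also had the lowest sums for glia and neurons, 38.8 and 32.6 CPM. WT library 3 was lowest of its group for endothelial (142 CPM) and pericyte (86.4 CPM) sums too, where CF library 3 was not. Its enterocyte sum was the highest of the WT libraries (20716 CPM). Smooth muscle sums were highest of all in CF library 3 (6607 CPM) and lowest of all in WT library 3 (3039.5 CPM). The collagens were low in both libraries. How far these sums bear on the collagen values was not tested.

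**Figure D5:**
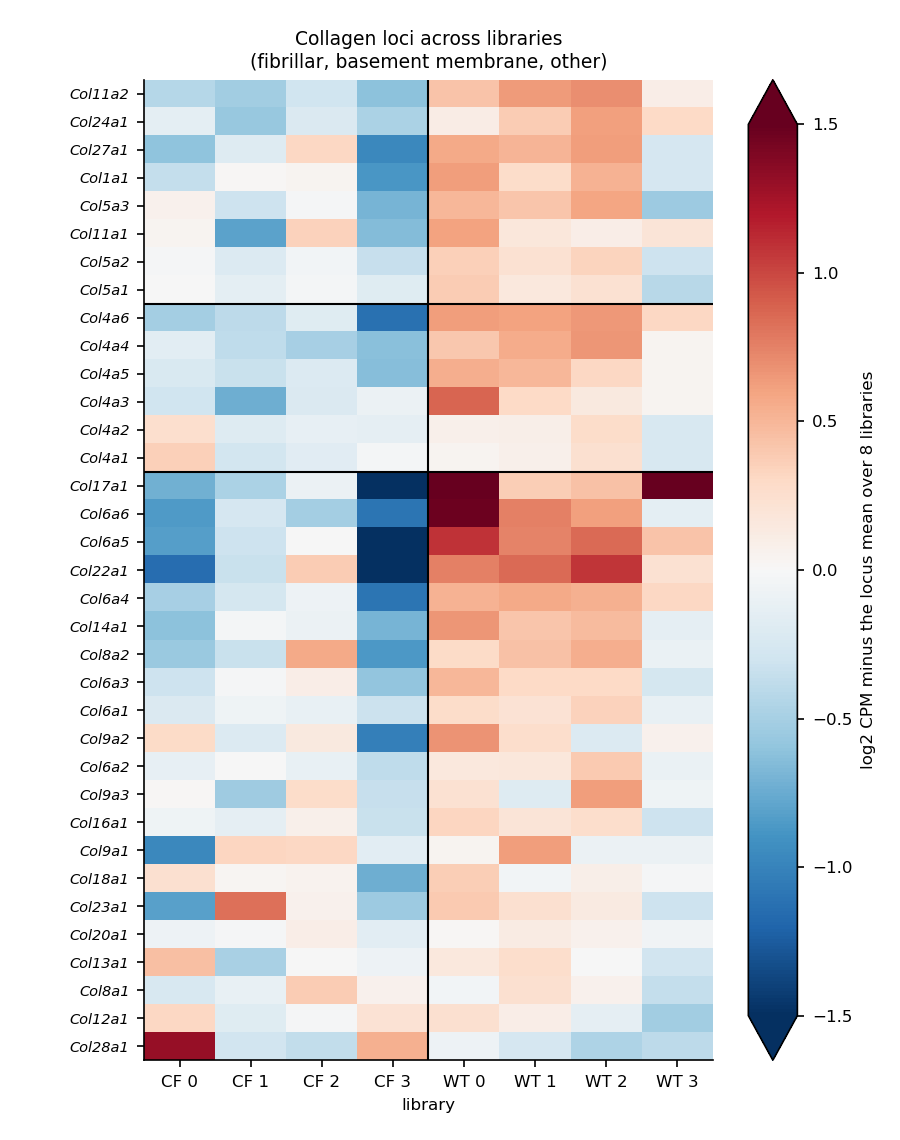
Log2 CPM of the 35 tested collagen loci in each library, minus the mean of the locus over the 8 libraries, with colours clipped at ± 1.5 and CF libraries left of WT libraries. With a small constant added to CPM, the median deviation was −0.21, −0.20, −0.02 and −0.51 in CF libraries 0 to 3. In WT libraries 0 to 3 it was 0.38, 0.25, 0.33 and −0.10. CF library 3 was thus the lowest column, CF library 2 was mixed, and WT library 3 lay on the side of the CF libraries.

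Genes that act on collagens were compared by lists, and no member of any list passed the edgeR test. Of 20 tested loci for assembly enzymes and chaperones, 15 had the lower mean in CF (50.8% of all loci; median −0.12). An unadjusted p under 0.05 was found for 4 of the 20, all lower, beside 15.1% of all loci in either direction and 7.21% lower. P4hb, the shared subunit of prolyl hydroxylase and also a general disulfide isomerase, averaged 2366 ± 279 CPM in CF tissue, against 2377 ± 524 CPM in WT tissue (SD, n = 4 each). Sparc, a collagen-binding matrix protein, averaged 636 ± 101 CPM in CF and 859 ± 112 CPM in WT (log2 fold change −0.43, SE 0.16, adjusted p = 0.245 by edgeR).

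Of 10 loci for processing and crosslinking, 8 were lower on average (50.8% of all loci; median −0.27). Of the 10, 4 had an unadjusted p under 0.05, all lower, beside the same 15.1% and 7.21% of all loci. Pcolce, which enhances removal of the propeptide by Bmp1, averaged 39.7 ± 7.53 CPM in CF, against 49.3 ± 5.98 CPM in WT, and Bmp1 itself 58.4 ± 2.04 CPM in CF, against 56.2 ± 11.0 CPM in WT. The log2 fold changes were −0.32 (SE 0.15) and 0.05 (SE 0.14).

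Of 15 loci for breakdown, 6 had lower and 9 higher means (median 0.02). Timp1, an inhibitor of matrix metalloproteinases, had 77.9, 28.8, 21.9 and 63.0 CPM in CF, against 17.0, 16.4, 16.2 and 12.2 CPM in WT. Its groups did not overlap, and its log2 fold change was 1.63 (SE 0.39, adjusted p = 0.134 by edgeR, 0.000422 by DESeq2). Mmp10, a metalloproteinase, had 175, 42.5, 65.8 and 46.7 CPM in CF, with CF library 0 alone above the WT libraries at 75.6 to 86.7 CPM.

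The 5 tested receptors divided into 2 lower and 3 higher on average (median 0.23), with Itgb1, the integrin subunit shared by collagen receptors, at 594 ± 95.3 CPM in CF, against 506 ± 31.2 CPM in WT. Ddr1, a collagen-binding receptor kinase of epithelia, averaged 168 ± 26.3 CPM in CF and 128 ± 6.91 CPM in WT (log2 fold change 0.39, SE 0.12, adjusted p = 0.191 by edgeR). The 2 with the lower mean in CF were Ddr2, a collagen-binding receptor kinase of fibroblasts (log2 fold change −0.40, SE 0.17, adjusted p = 0.308 by edgeR), and Itga11, a collagen integrin subunit (−0.64, SE 0.30, adjusted p = 0.337).

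Of 16 fibril-associated matrix loci, 13 had the lower mean (median −0.37). The proteoglycans Dcn and Lum, which coat fibrils, averaged 211 ± 44.4 and 87.2 ± 27.9 CPM in CF and 273 ± 49.9 and 125 ± 22.9 CPM in WT, and both are also on the fibroblast marker list. Their log2 fold changes were −0.38 (SE 0.18) and −0.52 (SE 0.23).

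The 15 basement membrane partner loci divided into 8 lower and 7 higher (median −0.11). Nid1, which links laminin to type IV collagen, averaged 176 ± 18.7 CPM in CF, against 230.2 ± 35.1 CPM in WT, and Lamc1, a laminin chain, 163 ± 20.9 CPM in CF and 176 ± 31.0 CPM in WT. Lamb3, a laminin chain of epithelia, and Nid2, a relative of Nid1, were picked after their values were seen. Nid2 had 49.6, 40.8, 42.7 and 26.2 CPM in CF, against 87.9, 66.0, 58.2 and 66.9 CPM in WT, with no overlap. Lamb3 had 9.64, 34.5, 18.4 and 18.5 CPM in CF, against 12.6, 5.22, 4.94 and 2.87 CPM in WT, and CF library 0 lay within the WT range. DESeq2 called Lamb3 higher (log2 fold change 1.66, adjusted p = 0.00825) and Nid2 lower (−0.81, 0.00755) in CF.

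Of 16 TGF-beta loci, 10 had lower and 6 higher means (median −0.04). Tgfbi, a TGF-beta induced matrix protein that binds collagen, averaged 227 ± 36.9 CPM in CF and 316 ± 13.3 CPM in WT (log2 fold change −0.48, SE 0.13, adjusted p = 0.149 by edgeR, 0.0208 by DESeq2).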

How the data were processed

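The data are stranded mRNA sequencing of small intestine in 8 libraries, 4 CF and 4 WT. The submitters' processing notes name build Rnor_6.0 and the tools bcl2fastq, cutadapt, STAR 2.3.1z, StringTie and Cuffdiff. Settings are not given in the sources used. Per the file headers, the estimated counts are Cuffdiff's unscaled fragments per locus and library, as deposited by the authors. Of these 5.99% were fractional, and all were rounded. The deposited FPKM, which Cuffdiff scales by library and transcript length per the file headers, served for levels, chain ratios and alternatives. The 2 remaining per-library columns were left out. Table numbers 0 to 3 could not be tied to sample titles, so only the group of a library is known.

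Loci that passed filterByExpr (minimum count 10, minimum total 15) were scaled by TMM and tested with edgeR's robust quasi-likelihood test at a Benjamini-Hochberg threshold of 0.05 over all 16941 loci. An SE is the log2 fold change over the square root of F. CPM are TMM-scaled. The method was tested on simulated data. Counts there were drawn independently for each locus, without shifts shared by many loci within a library. The collagen members and the gene lists were chosen with earlier results of these data known. Named genes were the 3 most abundant and the 2 with the lowest p of each class, and the 2 most abundant of each list. Members outside it are given to account for all 36, and all other genes were chosen after their values were seen. A result that this rule would name is not reported here. Spans are 1-based, with starts raised by 1 since the files count from 0, and can include neighbouring transcripts. RefSeq promoter windows were matched by symbol. Alternatives changed the scaling, filter, test, unit, rounding and the libraries used. The software comprised Python 3.11.15 (pandas 2.3.3, scipy 1.17.1, matplotlib 3.10.9) and R 4.3.3 (DESeq2 1.42.0, edgeR 4.0.16, limma 3.58.1).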

Additional observations from a re-analysis of the deposited data

Results flagged for a closer look

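For each of 80 groups of 4 values, the gap between the most extreme library and its neighbour was divided by the range and set against Dixon's critical value of 0.829, which chance passes in about 1 group in 20. It was passed in 5 groups. Col4a2 was highest in CF library 0, at 512 CPM (gap over range 0.856), where the enterocyte markers were lowest. WT library 3 was lowest among WT libraries for Col27a1 at 19.9 CPM (0.843), for Col4a6 at 16.7 CPM (0.862) and for the FPKM ratio of Col6a3 to Col6a1 at 0.524 (0.979). Col9a1 was highest in WT library 1 at 1.46 CPM (0.844).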

How the results depend on the processing

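The count of loci called was 28 and became 17 with total fragments alone as the scaling, 553 with no low-count filter and 621 with DESeq2. It ranged from 5 to 136 when 1 library was left out, reaching 136 when CF library 0 was dropped and 77 when CF library 2 was, and falling to 5, 5 and 6 when WT libraries 1, 2 and 3 were. The count of collagens called was 0, and 8 with no low-count filter, 9 with DESeq2 and 0 to 2 with 1 library left out. The cause of these shifts was not tested. The median log2 fold change of the members (−0.41) ranged from −0.52 to −0.32 with 1 library left out, and from −0.50 with total fragments to −0.35 with no filter and −0.26 on log2(FPKM + 1). Total fragments alone moved the median of all loci to −0.08. Signs changed only in members near 0 that no setting called: Col8a1 (0.05) was at −0.04 with total fragments and at −0.01 on log2(FPKM + 1) and −0.01 on log2(FPKM + 0.1), and Col13a1 (−0.04) at 0.00 with no filter. With 1 library left out the range was −0.53 to 0.07 for Col23a1, −0.34 to 0.02 for Col9a1, −0.20 to 0.03 for Col4a1, −0.22 to 0.10 for Col13a1 and −0.09 to 0.14 for Col8a1. The log2 difference of the Col6a3 to Col6a1 ratio ranged from −0.18 to 0.01 and that of Col6a2 to Col6a1 from −0.05 to 0.15. No paired analysis was possible because the library numbers in the tables cannot be tied to the replicate numbers of the titles, so the planned replicate block was not run. Members under about 1 CPM rest on few fragments, and the median SE of tested members was 0.19.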
